A study of Mus musculus with 6 samples.

Results

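The genes described here encode enzymes of purine and pyrimidine nucleotide metabolism. They were taken by name, as 33 listed symbols among the 35602 genes of a count table, and all 33 were found there and in the value tables of a further pair of libraries. Sorted by role, 2 of them supply phosphoribosyl pyrophosphate (PRPP), 10 act in de novo purine synthesis, 5 in de novo pyrimidine synthesis, 6 in salvage, 4 are nucleotide kinases, 2 set the level of dUMP, and 4 break nucleotides down or release nucleosides.

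The study compared CD4+ T cells from mouse spleen, stimulated through CD3 and CD28 for 72 h, that received MAPK13-IN-1, an inhibitor of the p38-type kinase MAPK13 (the group called MAPK13-inhibitors below), or the solvent DMSO, by sequencing polyadenylated RNA in 3 libraries per group. Replicates 2 and 3 of each group came from WT cells, with 17.1 µM inhibitor or DMSO added after day 1 by their labels, whereas the design text describes stimulation in the presence of the compound. The replicate 1 pair carries no genotype or dose label and was made with a stranded kit, unlike the poly-T bead libraries of replicates 2 and 3. No label says whether the libraries came from separate mice or cultures, so the p-values measure only the spread between these libraries, which may be technical.

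Replicates 2 and 3 are gene counts, with totals of 26874805 and 28487403 for DMSO and 33854760 and 32617702 for MAPK13-inhibitors, and are given as CPM (counts scaled to library size, with TMM factors). A count of 3, which a count of 0 would allow, corresponds to between 0.0845 and 0.116 CPM and covers counting error only. A gene was called at an adjusted p under 0.05 in edgeR's quasi-likelihood test, 2 libraries against 2, adjusted by the Benjamini-Hochberg method over the 16269 genes tested. The replicate 1 pair holds values that name no unit and were read as FPKM, in which fragments are divided by gene length and depth. With 1 library per group and unknown depth it has no test, and its differences are log2 ratios after adding 1 FPKM, a scale on which the change of low genes is understated.

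De novo synthesis builds the purine ring step by step on PRPP and makes the pyrimidine ring from glutamine, bicarbonate and aspartate, while salvage enzymes return free bases and nucleosides to the nucleotide pool. Lymphocytes that divide after stimulation need nucleotides for RNA and DNA, and drugs that block IMP dehydrogenase or dihydroorotate dehydrogenase are used to suppress immune responses. The comparison asks how transcripts of these routes differ between inhibitor-treated and DMSO-treated cells.

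Transcripts of other cells were measured beside those of T cells. The marker counts that follow stand against 32.3% of all genes called lower and 31.5% called higher. Of 9 CD4 T cell markers tested (10 listed), 7 fell (77.8%), 0 rose and none had a count of 0, and their summed level was 2091 and 2129 CPM with DMSO against 1330 and 1448 CPM with the inhibitor. *Cd5* had the highest CPM of them with DMSO and *Zap70* the highest mean with the inhibitor (for *Cd5*, 426 and 439 CPM against 154 and 200 CPM), while *Cd4* itself was at 275 and 276 CPM and 267 and 283 CPM. *Lck* (log2 fold change -1.20, SE 0.0605, edgeR quasi-likelihood test with Benjamini-Hochberg adjusted p = 1.4e-07) and *Cd3g* (log2 fold change -1.56, SE 0.0886, edgeR quasi-likelihood test with Benjamini-Hochberg adjusted p = 2.73e-07) were among those that fell. B cell transcripts were plentiful in all 4 counted libraries, with 9 of 12 listed markers in the table, a summed level of 1093 and 1071 CPM with DMSO against 1227 and 1255 CPM with the inhibitor, and *Pax5* highest in CPM for the inhibitor. Of these 9 markers, 6 rose (66.7%) and 2 fell (22.2%), and none had a count of 0 in a counted library. In the replicate 1 pair the same markers summed to 51.6 and 35.7 FPKM, against 1308 and 1218 FPKM for the CD4 T cell markers, and all 8 B cell markers kept had negative log2 ratios there.

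Erythroid markers summed to 10.5 and 10.3 CPM with DMSO and 91.4 and 66.6 CPM with the inhibitor, led by *Epor* with DMSO and *Hbb-bs* with the inhibitor, and 6 of 8 tested rose while 1 fell; 1 of the 9 listed had a count of 0 in some library. Macrophage and monocyte markers summed to 13.7 and 12.2 CPM against 43.2 and 35.7 CPM, led by *Cd68*, and 6 of 7 tested rose, while 4 of the 10 listed had a 0 in some library. The CD8 T and NK cell list, led by *Cd8b1*, summed to 20.9 and 20.3 CPM against 13.2 and 15.4 CPM, with 3 of 6 tested lower and 1 higher, and 2 of the 8 listed had a 0 in some library. Neutrophil markers stayed near the floor, with sums of 0.543 and 0.441 CPM against 1.04 and 1.18 CPM and a 0 in some library for 7 of 9. *Ltf* was highest with DMSO and *Mpo*, the only gene of the list tested, with the inhibitor, and *Mpo* rose, while *S100a9* had a count of 0 in all 4 libraries. Replicate 1 sums with DMSO and the inhibitor were 5.00 and 16.0 FPKM for the CD8 T and NK cell list, opposite to the counts, and 0.757 and 0.468 FPKM for neutrophils, also opposite. They were 2.96 and 9.18 FPKM for macrophages and monocytes and 1.01 and 2.04 FPKM for erythroid markers. By the paper's methods, a CD4 T cell isolation kit was used on the spleen cells before stimulation. The part of the other cells in the results below was not tested. In such bulk samples, fewer cells of a type and less RNA per cell cannot be told apart.

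All 33 nucleotide metabolism genes passed the filter on low counts, and 22 of them (66.7%) were called, against 63.8% of all genes tested, so the share called lies near the background. By direction, 15 members (45.5%) were lower with the inhibitor, against 32.3% of all genes, and 7 (21.2%) were higher, against 31.5%. Past a fold of 1.5, 8 members (24.2%) were lower and 1 (3.03%) was higher, where the shares of all genes were 19.6% and 20.3%. Scaling by library totals made these 7 lower and 3 higher members, where the shares of all genes were 15.9% and 24.6%. The median log2 fold change was -0.15 over the members and 0.01 over all genes tested. Scaling by library totals instead of TMM moved the median of all genes to 0.14 and that of the members to -0.03, since a scaling moves all genes alike. The distance of the members from all genes, -0.16 with the filter and TMM scaling used, was -0.31 with no filter on low counts, -0.25 without DMSO replicate 3 and -0.11 with at least 10 counts in every library. With library totals the calls split into 12 lower and 12 higher members, against 4302 and 6176 of the 16269 genes tested. With upper-quartile scaling they split into 12 lower and 11 higher, against 4633 and 5823. A filter of at least 10 counts in every library gave 14 lower and 11 higher, against 4716 and 4606 of 14166. Among the calls of these settings, 50%, 52.2% and 56% were lower for members, and 41.1%, 44.3% and 50.6% for all genes.

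In the replicate 1 pair all 33 members had at least 1 FPKM in at least 1 library, and the median log2 ratio was -0.13, against 0.08 over the 11510 genes kept. Of the 33 members, 23 had a negative log2 ratio, against 4974 of the 11444 genes kept that are also in the count table. Sign counts of this pair elsewhere stand against the same count. Past a fold of 1.5, 4 members (12.1%) were lower, against 7.53% of the genes kept, namely *Impdh2*, *Dhodh*, *Ctps* and *Dut*. Another 4 members (12.1%) were higher, against 17% of the genes kept, namely *Prps2*, *Aprt*, *Ada* and *Pnp*. Of the 22 members called from the counts, 16 (72.7%) had a log2 ratio of the same sign in this pair, as had 64.9% of all called genes kept there. The exceptions were *Prps1*, *Paics*, *Atic*, *Cad*, *Aprt* and *Nt5e*.

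Per gene length, in the FPKM of the replicate 1 DMSO library, the most abundant members were *Nme2* at 307 FPKM, *Impdh2* at 183 FPKM, *Nme1* at 160 FPKM, *Aprt* at 109 FPKM and *Hprt* at 103 FPKM. The lowest were *Ada* at 4.41 FPKM, *Dctd* at 4.44 FPKM, *Dhodh* at 6.42 FPKM and *Nt5e* at 6.60 FPKM. With the inhibitor *Nme2* again had the highest value, at 296 FPKM, and *Dctd* the lowest, at 3.02 FPKM. Neighbours in this order cannot be separated, as each group has 1 such library.

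**Figure D1:**
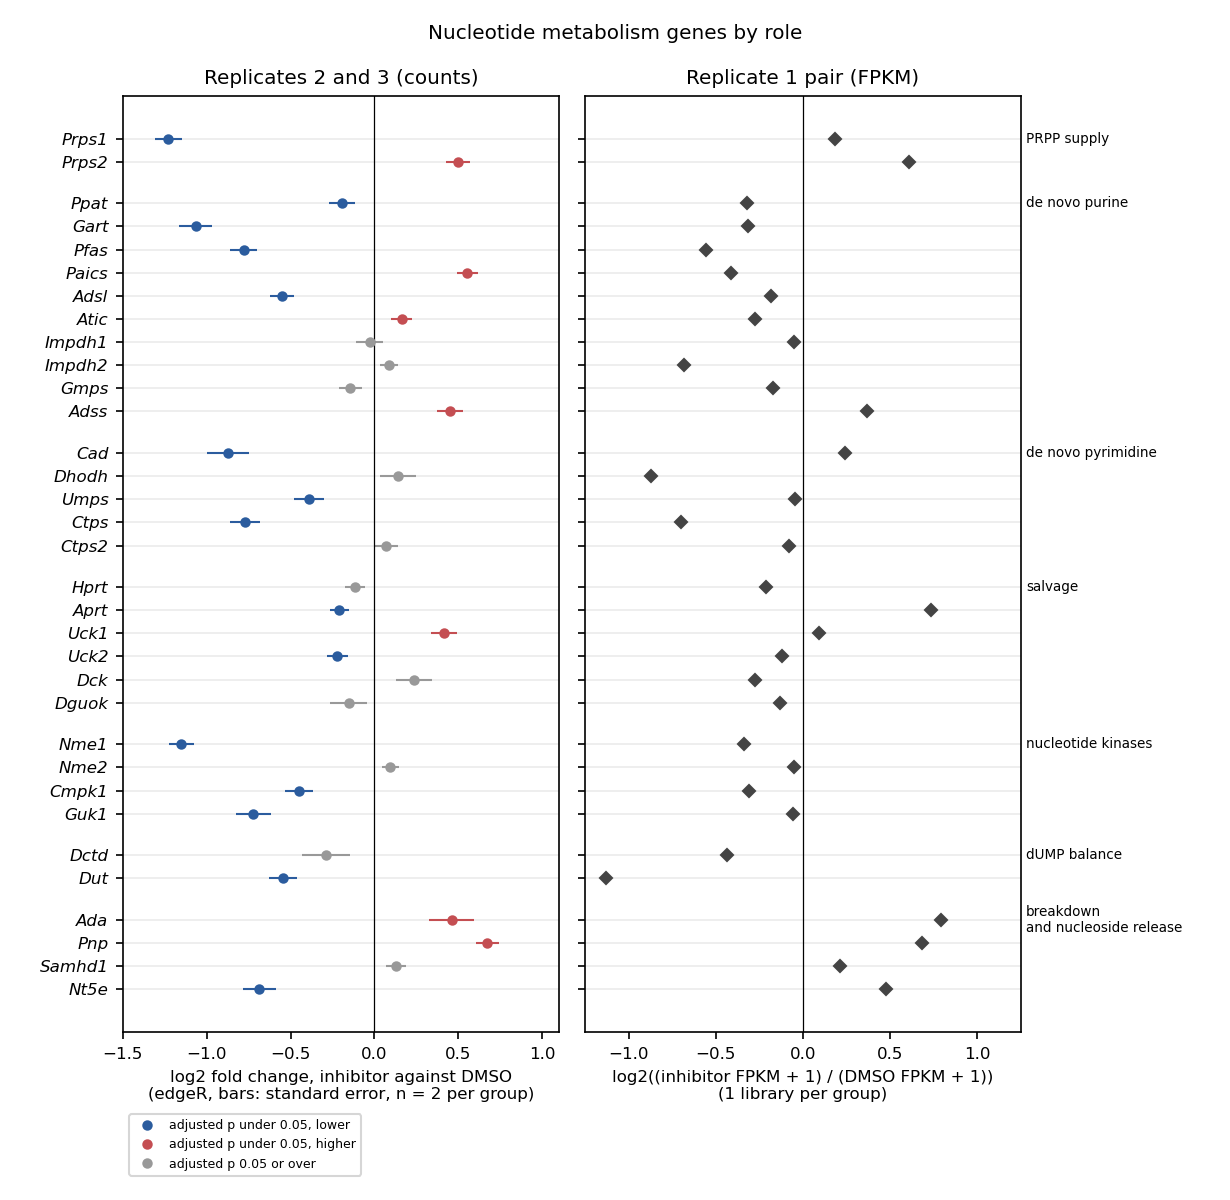
Log2 fold changes of the 33 members, grouped by role, with edgeR estimates from replicates 2 and 3 and bars of 1 standard error on the left, colored by call, and log2 ratios of the replicate 1 pair after adding 1 FPKM on the right. *Prps1* lies at -1.23 on the left and 0.18 on the right, whereas *Pnp* lies at 0.67 and 0.68.

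PRPP synthetases make the activated ribose that de novo synthesis and base salvage share. *Prps1* was measured at 70.2 and 68.8 CPM in the DMSO libraries and 28.0 and 31.3 CPM in the inhibitor libraries. Both inhibitor libraries lay far under both DMSO libraries. In this fit *Prps1* showed the largest fall of any member (log2 fold change -1.23, SE 0.0805, edgeR quasi-likelihood test with Benjamini-Hochberg adjusted p = 6.5e-07). Without inhibitor replicate 2, *Nme1* was lower, at -1.19 against -1.15 for *Prps1*, and without DMSO replicate 2 both were at -1.23. *Prps2*, the isozyme of *Prps1*, was at 50.8 and 48.5 CPM against 67.5 and 72.7 CPM. Here both inhibitor libraries were the higher ones, and the gene rose (log2 fold change 0.50, SE 0.0727, edgeR quasi-likelihood test with Benjamini-Hochberg adjusted p = 0.000161). The ratio of *Prps1* to *Prps2* CPM was therefore 1.38 and 1.42 with DMSO and 0.415 and 0.431 with the inhibitor.

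The replicate 1 pair did not show this fall, since *Prps1* was at 50.003 FPKM for DMSO and 56.8 FPKM for the inhibitor (log2 ratio 0.18). *Prps2* was at 13.2 FPKM for DMSO and 20.6 FPKM for the inhibitor (log2 ratio 0.61) and shared the direction of the counts. Per length, *Prps1* was the more abundant isozyme in this pair, at 3.80 times the *Prps2* FPKM for DMSO and 2.76 times with the inhibitor. The count of *Prps1* is uncertain for a further reason, because 18.8% of the 31-base windows of its longest coding transcript also occur in *Prps1l3*, a related gene with counts of its own. *Prps1l3*, named for its sequence, was at 64.4 and 64.2 CPM against 61.7 and 60.8 CPM and was not called (log2 fold change -0.07, SE 0.0660, edgeR quasi-likelihood test with Benjamini-Hochberg adjusted p = 0.375). Summed over both genes, the level was 135 and 133 CPM with DMSO and 89.7 and 92.1 CPM with the inhibitor, a log2 ratio of means of -0.56. The sum thus remained lower in both inhibitor libraries, by less than *Prps1* alone.

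Among the 10 de novo purine genes, 4 fell (40%, against 32.3% of all genes), 3 rose (30%, against 31.5%) and 3 were not called, with a median log2 fold change of -0.09. These shares lie near the background. *Gart*, a multifunctional enzyme of the early ring-building steps, was at 124 and 132 CPM with DMSO and 53.6 and 68.6 CPM with the inhibitor. Its inhibitor libraries were both low, although replicate 2 was lower than replicate 3, and the gene fell (log2 fold change -1.07, SE 0.100, edgeR quasi-likelihood test with Benjamini-Hochberg adjusted p = 7.2e-06). *Pfas*, which carries out the glutamine-dependent step between the activities of *Gart*, was at 85.3 and 88.7 CPM against 47.0 and 54.4 CPM. It fell as well (log2 fold change -0.78, SE 0.0803, edgeR quasi-likelihood test with Benjamini-Hochberg adjusted p = 1.38e-05), with no overlap between the groups. A later enzyme of the route moved the other way: *Paics* was at 195 and 193 CPM with DMSO and 272 and 299 CPM with the inhibitor. Both inhibitor libraries exceeded both DMSO libraries, and *Paics* rose (log2 fold change 0.55, SE 0.0604, edgeR quasi-likelihood test with Benjamini-Hochberg adjusted p = 2.05e-05).

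The remaining called genes of the route to IMP and AMP had larger p-values. *Adsl*, a lyase used in IMP and in AMP formation, averaged 64.6 CPM with DMSO and 44.1 CPM with the inhibitor (log2 fold change -0.55). *Adss*, which commits IMP to AMP, averaged 120 CPM and 164 CPM (log2 fold change 0.45), and *Atic*, which completes IMP, averaged 97.1 CPM and 109 CPM (log2 fold change 0.16). *Ppat*, the amidotransferase of the committed step, averaged 42.0 CPM and 36.7 CPM (log2 fold change -0.19). The calls of *Ppat* and *Atic* rest on little, at edgeR quasi-likelihood Benjamini-Hochberg adjusted p of 0.0475 and 0.0413, and are lost under 9 and 4 of the 11 other settings.

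No gene of the guanine branch was called. *Impdh1*, an IMP dehydrogenase, was at 144 and 142 CPM against 128 and 153 CPM and was not called (log2 fold change -0.03, SE 0.0807, edgeR quasi-likelihood test with Benjamini-Hochberg adjusted p = 0.766). Its isozyme *Impdh2* was at 271 and 267 CPM against 289 and 283 CPM, again without a call (log2 fold change 0.09, SE 0.0516, edgeR quasi-likelihood test with Benjamini-Hochberg adjusted p = 0.162). The groups overlapped for *Impdh1*, whose inhibitor libraries lay on either side of the DMSO libraries, and its sign turned under 4 settings, among them scaling by library totals (log2 fold change 0.10). The ratio of *Impdh1* to *Impdh2* CPM was 0.530 and 0.533 with DMSO and 0.441 and 0.540 with the inhibitor. *Gmps*, the glutamine-dependent GMP synthetase, was at 79.6 and 72.3 CPM against 68.7 and 68.8 CPM (log2 fold change -0.14, SE 0.0705, edgeR quasi-likelihood test with Benjamini-Hochberg adjusted p = 0.0983). Both *Gmps* values with the inhibitor lay under both with DMSO, by a margin that did not pass the test. Under some of the 11 other settings these genes were called: *Impdh2* higher in 3, *Gmps* lower in 2 and *Impdh1* lower in 1.

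Of the 10 de novo purine genes, 9 had a negative log2 ratio in the replicate 1 pair, against 4974 of 11444 genes kept. Their median was -0.30, and the exception was *Adss*. *Gart* (-0.32), *Pfas* (-0.56), *Adsl* (-0.18), *Ppat* (-0.32) and *Adss* (0.37) had the sign of the counts there. *Paics* did not, at 75.0 FPKM for DMSO and 56.2 FPKM for the inhibitor (log2 ratio -0.41), and neither did *Atic* (-0.27). *Impdh2* had the most negative ratio of the route, at 183 FPKM for DMSO and 114 FPKM for the inhibitor (log2 ratio -0.68), beside 19.965 FPKM for DMSO and 19.2 FPKM for the inhibitor (log2 ratio -0.05) for *Impdh1*. *Gmps* had a log2 ratio of -0.17. The counts of *Impdh2* are uncertain, as 77.3% of its transcript windows also occur in the processed pseudogene *Impdh2-ps*, which has no line of its own in the count table.

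Of the 5 de novo pyrimidine genes, 3 fell (60%, against 32.3% of all genes), 0 rose (against 31.5%) and 2 were not called. In either direction 60% were called, against 63.8% of all genes, a share of very few genes. The median log2 fold change was -0.39. *Cad*, whose protein joins the opening enzyme activities of the pathway, was at 192 and 202 CPM with DMSO and 89.0 and 126 CPM with the inhibitor. Both inhibitor libraries were lower than both DMSO libraries and apart from each other, and *Cad* fell (log2 fold change -0.87, SE 0.124, edgeR quasi-likelihood test with Benjamini-Hochberg adjusted p = 0.000137). *Ctps*, a CTP synthase, was at 35.5 and 39.0 CPM against 21.9 and 21.7 CPM. Its inhibitor libraries nearly coincided, well under DMSO, and the gene fell (log2 fold change -0.77, SE 0.0896, edgeR quasi-likelihood test with Benjamini-Hochberg adjusted p = 3.17e-05). *Umps*, which forms UMP, was at 41.7 and 43.5 CPM against 30.6 and 34.4 CPM, again without overlap, and fell (log2 fold change -0.39, SE 0.0868, edgeR quasi-likelihood test with Benjamini-Hochberg adjusted p = 0.00259).

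The other genes of this route were not called. *Ctps2*, the isozyme of *Ctps*, was at 42.2 and 42.4 CPM against 43.9 and 44.8 CPM (log2 fold change 0.07, SE 0.0741, edgeR quasi-likelihood test with Benjamini-Hochberg adjusted p = 0.433). The ratio of *Ctps* to *Ctps2* CPM was accordingly 0.842 and 0.921 with DMSO and 0.498 and 0.485 with the inhibitor. *Dhodh*, the mitochondrial enzyme of the route, was at 14.1 and 13.7 CPM against 15.7 and 14.8 CPM (log2 fold change 0.14, SE 0.108, edgeR quasi-likelihood test with Benjamini-Hochberg adjusted p = 0.282). For both genes the inhibitor libraries were slightly above the DMSO libraries, within the error of the test, and *Ctps2* was called higher with library totals.

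*Ctps* was again lower in the replicate 1 pair, at 25.9 FPKM for DMSO and 15.6 FPKM for the inhibitor (log2 ratio -0.70), while *Ctps2* was at 8.40 FPKM for DMSO and 7.88 FPKM for the inhibitor (log2 ratio -0.08). Per length, *Ctps* was at 3.09 times the *Ctps2* FPKM for DMSO and 1.98 times with the inhibitor. *Cad* went against the counts in this pair, at 27.7 FPKM for DMSO and 32.9 FPKM for the inhibitor (log2 ratio 0.24). *Umps* had a log2 ratio of -0.05, and *Dhodh* was at 6.42 FPKM for DMSO and 3.05 FPKM for the inhibitor (log2 ratio -0.87), the most negative of the pyrimidine genes and opposite in sign to its count estimate.

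Of the 6 salvage genes, 2 fell (33.3%, against 32.3% of all genes), 1 rose (16.7%, against 31.5%) and 3 were not called. In either direction 50% were called, against 63.8% of all genes. None of the 6 passed a fold of 1.5, where 19.6% of all genes were lower and 20.3% higher. *Uck1*, a kinase of uridine and cytidine, was at 62.4 and 58.1 CPM with DMSO and 75.7 and 84.8 CPM with the inhibitor. Both inhibitor libraries were higher, and *Uck1* rose (log2 fold change 0.41, SE 0.0772, edgeR quasi-likelihood test with Benjamini-Hochberg adjusted p = 0.000852). Its isozyme *Uck2* was at 192 and 189 CPM against 172 and 155 CPM and fell (log2 fold change -0.22, SE 0.0633, edgeR quasi-likelihood test with Benjamini-Hochberg adjusted p = 0.0107). The ratio of *Uck1* to *Uck2* CPM was thus 0.326 and 0.307 with DMSO and 0.441 and 0.547 with the inhibitor. *Aprt*, which salvages adenine, was at 124 and 125 CPM against 106 and 110 CPM, without overlap, and fell (log2 fold change -0.21, SE 0.0588, edgeR quasi-likelihood test with Benjamini-Hochberg adjusted p = 0.00984). The calls of *Uck2* and *Aprt* are lost with library totals, with upper-quartile scaling and without DMSO replicate 2, and that of *Aprt* also without DMSO replicate 3.

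The salvage genes without a call included *Hprt*, which salvages hypoxanthine and guanine and is often used as a reference gene. It was at 157 and 149 CPM against 141 and 142 CPM (log2 fold change -0.11, SE 0.0582, edgeR quasi-likelihood test with Benjamini-Hochberg adjusted p = 0.108), and its sign turns under scaling by library totals (log2 fold change 0.01), while it was called lower without inhibitor replicate 3. *Dck*, the cytosolic deoxycytidine kinase, was at 70.1 and 63.8 CPM against 68.7 and 88.7 CPM (log2 fold change 0.23, SE 0.108, edgeR quasi-likelihood test with Benjamini-Hochberg adjusted p = 0.0805). Here the groups overlapped, since only replicate 3 of the inhibitor group was above both DMSO libraries, yet *Dck* was called higher under 7 of the 11 other settings. *Dguok*, the mitochondrial deoxyguanosine kinase, was at 14.2 and 13.9 CPM against 12.7 and 12.5 CPM (log2 fold change -0.15, SE 0.109, edgeR quasi-likelihood test with Benjamini-Hochberg adjusted p = 0.241). The *Dguok* values of all 4 libraries lay close together.

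Salvage genes had log2 ratios in the replicate 1 pair between -0.28 for *Dck* and 0.73 for *Aprt*, with a median of -0.13. *Aprt* was at 109 FPKM for DMSO and 183 FPKM for the inhibitor (log2 ratio 0.73), the opposite of its direction in the counts. *Uck1* was at 18.6 FPKM for DMSO and 19.9 FPKM for the inhibitor (log2 ratio 0.09) and *Uck2* at 42.7 FPKM for DMSO and 39.2 FPKM for the inhibitor (log2 ratio -0.12), both with the sign of the counts. *Hprt* (-0.21) and *Dguok* (-0.13) were slightly lower with the inhibitor. Of the transcript windows of *Uck1*, 28.9% are shared with the pseudogene *Gm4482*, which is not listed in the count table.

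Set against each other, de novo and salvage genes had nearly the same median log2 fold change, -0.14 over 15 de novo genes and -0.13 over 6 salvage genes, a difference of -0.01. The sign of that difference rests on 1 library, as it is 0.03 without DMSO replicate 2. With the PRPP synthetases counted as de novo and *Ada* and *Pnp* as salvage, the difference was -0.20. No test was made, because genes of a list are not replicates. By range, de novo genes ran from -1.07 (*Gart*) to 0.55 (*Paics*), and salvage genes from -0.22 (*Uck2*) to 0.41 (*Uck1*). Past a fold of 1.5, 4 of 15 de novo genes (26.7%) and 0 of 6 salvage genes fell, against 19.6% of all genes, namely *Gart*, *Pfas*, *Cad* and *Ctps*, and with lists this short the difference is a description only.

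Summed levels gave a like picture. The de novo genes together held 1547 and 1562 CPM with DMSO and 1427 and 1508 CPM with the inhibitor, and the salvage genes 619 and 599 CPM against 576 and 592 CPM. For both sums the inhibitor libraries were below the DMSO libraries, and this order reverses when counts are scaled by library totals: de novo 1484 and 1491 per library total against 1495 and 1567, salvage 594 and 572 against 603 and 615. The ratio of the de novo to the salvage sum was 2.50 and 2.61 with DMSO and 2.48 and 2.55 with the inhibitor, so the groups overlapped. Within the de novo genes the purine sum was 1221 and 1222 CPM with DMSO against 1225 and 1266 CPM with the inhibitor. The pyrimidine sum was 325 and 340 CPM against 201 and 242 CPM without overlap, a difference carried mostly by *Cad*. In the replicate 1 pair the de novo sum was 582 FPKM for DMSO and 467 FPKM for the inhibitor, and the salvage sum 305 FPKM and 357 FPKM. The arms did not part there in the same way, as the purine sum was 498 and 392 FPKM and the pyrimidine sum 84.5 and 74.9 FPKM. All members together took 0.320% and 0.317% of the counts with DMSO and 0.327% and 0.333% with the inhibitor.

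**Figure D2:**
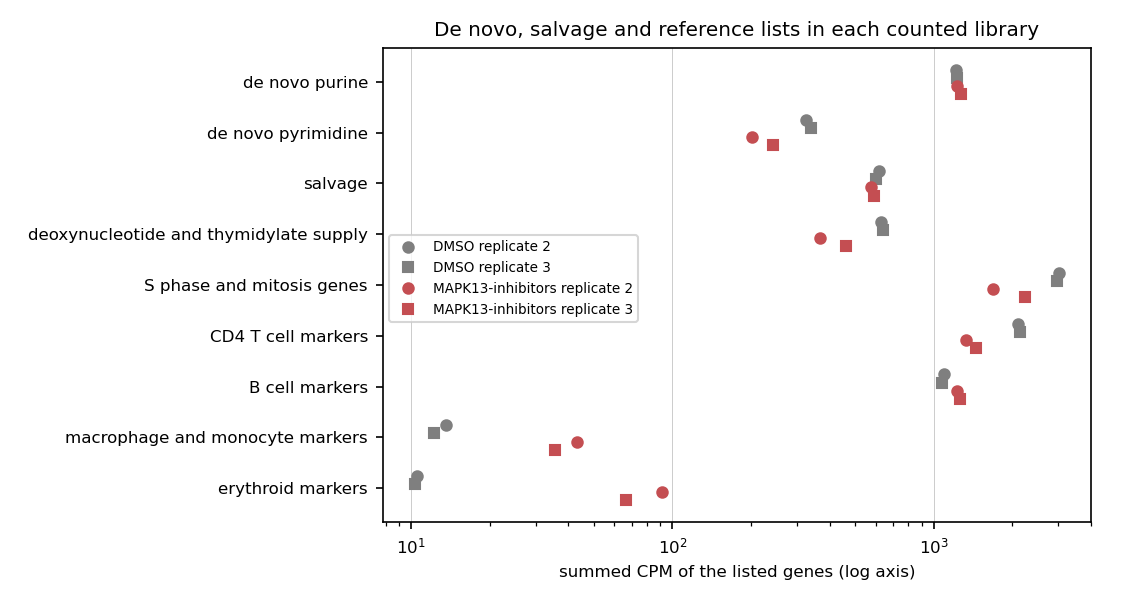
Summed CPM of gene lists in each of the 4 counted libraries, on a log axis, with circles for replicate 2 and squares for replicate 3. The de novo pyrimidine sum is 325 and 340 CPM with DMSO and 201 and 242 CPM with the inhibitor, while de novo purine and salvage sums lie close together in the 4 libraries.

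Nucleotide kinases turn mono- and diphosphates into triphosphates, and 3 of the 4 listed here fell (75%, against 32.3% of all genes), a share of very few genes. *Nme1*, a nucleoside diphosphate kinase, was at 81.4 and 88.9 CPM with DMSO and 39.2 and 37.5 CPM with the inhibitor. The inhibitor libraries were close to each other and far under DMSO, and *Nme1* fell (log2 fold change -1.15, SE 0.0744, edgeR quasi-likelihood test with Benjamini-Hochberg adjusted p = 5.9e-07). *Nme2*, its neighbour and isozyme, was at 272 and 276 CPM against 292 and 292 CPM and was not called (log2 fold change 0.09, SE 0.0512, edgeR quasi-likelihood test with Benjamini-Hochberg adjusted p = 0.129). *Nme2* was called higher under 3 of the 11 other settings. The ratio of *Nme1* to *Nme2* CPM was 0.2999 and 0.3227 with DMSO and 0.134 and 0.128 with the inhibitor. *Guk1*, the guanylate kinase, was at 29.5 and 30.1 CPM against 16.7 and 19.4 CPM and fell (log2 fold change -0.72, SE 0.102, edgeR quasi-likelihood test with Benjamini-Hochberg adjusted p = 0.000126). *Cmpk1*, which phosphorylates UMP and CMP, was at 53.2 and 47.5 CPM against 37.3 and 36.2 CPM and also fell (log2 fold change -0.45, SE 0.0825, edgeR quasi-likelihood test with Benjamini-Hochberg adjusted p = 0.000743). Neither gene overlapped between the groups.

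All 4 kinases had negative log2 ratios in the replicate 1 pair, of -0.34 for *Nme1*, -0.31 for *Cmpk1*, -0.06 for *Guk1* and -0.05 for *Nme2*. *Nme1* was at 160 FPKM for DMSO and 126 FPKM for the inhibitor, and *Nme2* at 307 and 296 FPKM, so that the ratio of the isozymes was 0.520 and 0.426. The split of reads between the isozymes is uncertain, since 55.4% of the *Nme2* windows and 12.4% of the *Nme1* windows also occur in *Gm20390*, a transcript that runs through both genes and has no line in the count table. Some of these *Nme2* windows also occur elsewhere, 26.2% of all *Nme2* windows in *Gm7730* and 20.3% in *Gm5425*, and all of them are among those shared with *Gm20390*.

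**Figure D3:**
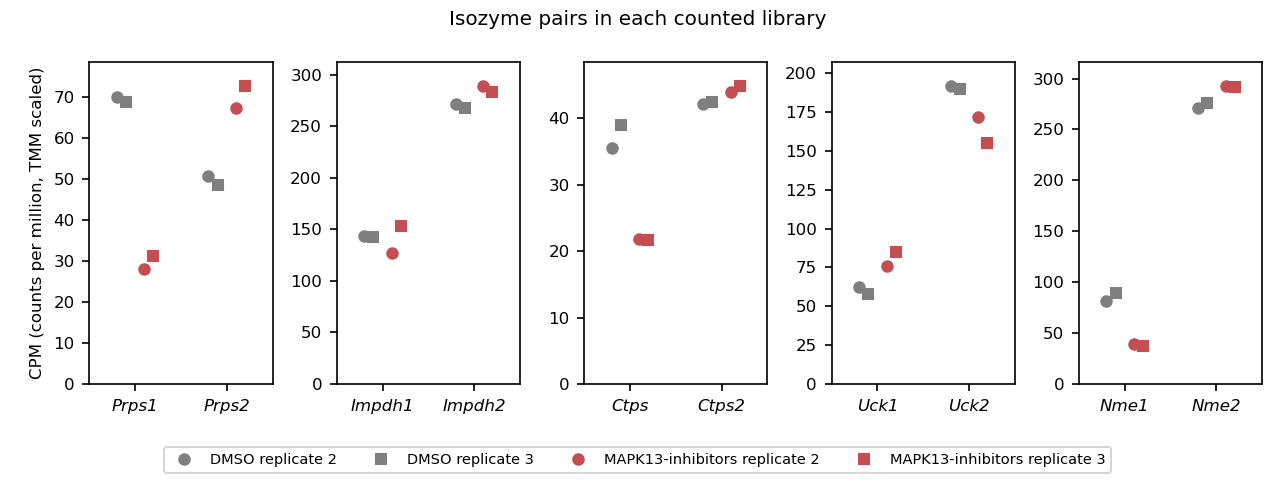
CPM of 5 isozyme pairs in the 4 counted libraries, with grey points for DMSO, red points for MAPK13-inhibitors, circles for replicate 2 and squares for replicate 3. *Prps1*, *Ctps* and *Nme1* are lower in both inhibitor libraries, while their isozymes *Prps2*, *Ctps2* and *Nme2* are not; CPM are not scaled for gene length, so heights compare libraries and not genes.

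dUMP is the substrate for thymidylate and comes from dUTP or dCMP. *Dut*, the dUTPase, was at 116 and 116 CPM with DMSO and 72.0 and 87.1 CPM with the inhibitor. Both inhibitor libraries were lower, replicate 2 more so, and *Dut* fell (log2 fold change -0.55, SE 0.0850, edgeR quasi-likelihood test with Benjamini-Hochberg adjusted p = 0.000252). *Dctd*, the dCMP deaminase, was at 7.68 and 8.49 CPM against 6.82 and 6.40 CPM and was not called (log2 fold change -0.29, SE 0.144, edgeR quasi-likelihood test with Benjamini-Hochberg adjusted p = 0.0995). Its libraries held only 198 to 242 counts, and the inhibitor values lay under the DMSO values. Replicate 1 values of *Dut* were 59.2 FPKM for DMSO and 26.5 FPKM for the inhibitor (log2 ratio -1.13), the ratio furthest from 0 of all members, and those of *Dctd* 4.44 FPKM for DMSO and 3.02 FPKM for the inhibitor (log2 ratio -0.44).

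Enzymes of breakdown and nucleoside release went in both directions. *Pnp*, the purine nucleoside phosphorylase, was at 46.9 and 47.6 CPM with DMSO and 75.3 and 75.4 CPM with the inhibitor. Replicates agreed closely within each group, and *Pnp* rose (log2 fold change 0.67, SE 0.0669, edgeR quasi-likelihood test with Benjamini-Hochberg adjusted p = 1.08e-05). No other member rose past a fold of 1.5 in this fit. *Paics* did so as well with library totals (0.68), upper-quartile scaling (0.64), at least 10 counts in every library (0.60) and without inhibitor replicate 2 (0.62), and *Prps2* with library totals (0.62). *Ada*, the adenosine deaminase, was at 8.76 and 9.78 CPM against 11.7 and 13.8 CPM and rose (log2 fold change 0.46, SE 0.134, edgeR quasi-likelihood test with Benjamini-Hochberg adjusted p = 0.0117). The call of *Ada* is lost without DMSO replicate 2. *Nt5e*, the surface enzyme that makes adenosine from AMP, was at 25.1 and 24.5 CPM against 16.1 and 14.7 CPM and fell (log2 fold change -0.69, SE 0.100, edgeR quasi-likelihood test with Benjamini-Hochberg adjusted p = 0.000161). *Samhd1*, which hydrolyses deoxynucleoside triphosphates, was at 404.99 and 388 CPM against 453 and 414 CPM and was not called (log2 fold change 0.13, SE 0.0581, edgeR quasi-likelihood test with Benjamini-Hochberg adjusted p = 0.0751). Among the settings that keep all 4 libraries, *Samhd1* was called higher with upper-quartile scaling, library totals, at least 10 counts in every library and a replicate block. Its log2 fold change was 0.06 without inhibitor replicate 2 and 0.18 without inhibitor replicate 3. The inhibitor libraries were above DMSO for *Pnp*, *Ada* and *Samhd1*, and below it for *Nt5e*.

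The replicate 1 pair had positive log2 ratios for all 4 of these genes. *Pnp* was at 13.8 FPKM for DMSO and 22.8 FPKM for the inhibitor (log2 ratio 0.68) and *Ada* at 4.41 FPKM for DMSO and 8.36 FPKM for the inhibitor (log2 ratio 0.79), in the direction of the counts. *Samhd1* was at 91.9 FPKM for DMSO and 107 FPKM for the inhibitor (log2 ratio 0.21), whereas *Nt5e* was at 6.60 FPKM for DMSO and 9.57 FPKM for the inhibitor (log2 ratio 0.48), opposite to its fall in the counts. Of the transcript windows of *Pnp*, 23.6% occur in *Gm49342* and 9.31% in *Gm38316*, which have no line in the count table. A further partner, with 20.5% of the windows, is its paralog *Pnp2*, which was at 4.46 and 5.37 CPM against 6.93 and 8.32 CPM and also rose (log2 fold change 0.63, SE 0.170, edgeR quasi-likelihood test with Benjamini-Hochberg adjusted p = 0.00774). Summed over both genes, the level was 51.4 and 53.0 CPM with DMSO and 82.3 and 83.7 CPM with the inhibitor.

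The other genes of nucleotide metabolism, 60 tested of 74 listed, showed 27 lower (45%) and 15 higher (25%), against 32.3% and 31.5% of all genes, with a median log2 fold change of -0.24. In the supply of deoxynucleotides and thymidylate, 6 of 10 genes fell (60%) and 1 rose (10%), and the median was -0.48. *Rrm2*, the regulated subunit of ribonucleotide reductase, was at 166 and 164 CPM with DMSO and 54.3 and 79.6 CPM with the inhibitor and fell (log2 fold change -1.30, SE 0.134, edgeR quasi-likelihood test with Benjamini-Hochberg adjusted p = 1.37e-05), while the large subunit *Rrm1* was at 211 and 213 CPM against 155 and 195 CPM (log2 fold change -0.27). *Tk1*, the thymidine kinase of dividing cells, was at 48.9 and 57.6 CPM against 24.7 and 29.8 CPM and fell (log2 fold change -0.97, SE 0.110, edgeR quasi-likelihood test with Benjamini-Hochberg adjusted p = 2.8e-05). *Dtymk*, the thymidylate kinase, was at 51.8 and 49.4 CPM against 26.8 and 32.4 CPM (log2 fold change -0.77), and thymidylate synthase *Tyms* at 53.9 and 56.6 CPM against 22.2 and 34.8 CPM (log2 fold change -0.96). *Rrm2*, *Tk1* and *Dtymk* are named for their small p in these same libraries, so the separation of their groups follows from that choice. Over the whole list of 10, both inhibitor libraries were below both DMSO libraries for 7 genes and above them for 1. Of the 35602 genes in the count table, 7389 were below and 8772 above, and 11938 had no count in any library. The genes named so far all had negative log2 ratios in the replicate 1 pair, from -1.51 for *Tk1* to -0.25 for *Dtymk*. The gene of this list that rose was *Cmpk2* (log2 fold change 0.63), named after its value was seen.

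Of 11 further kinases of nucleotides or nucleosides tested, 6 (54.5%) were lower and 3 (27.3%) higher, against 32.3% and 31.5% of all genes. The list they come from also holds *Adssl1*, *Prpsap1*, *Prpsap2* and *Uprt*, which are not such kinases, and with these 8 of 15 were lower and 4 higher. *Ak4*, a mitochondrial adenylate kinase, was at 155 and 148 CPM against 273 and 247 CPM and rose (log2 fold change 0.78, SE 0.0646, edgeR quasi-likelihood test with Benjamini-Hochberg adjusted p = 3.09e-06), yet had 1.42 and 0.700 FPKM in the replicate 1 pair. *Nme4*, a mitochondrial diphosphate kinase, was at 25.2 and 26.4 CPM against 7.04 and 10.1 CPM and fell (log2 fold change -1.59, SE 0.151, edgeR quasi-likelihood test with Benjamini-Hochberg adjusted p = 7.75e-06), while its log2 ratio in that pair was 1.17. *Adssl1*, the muscle type of *Adss*, was at 4.69 and 4.49 CPM against 12.2 and 12.0 CPM (log2 fold change 1.40). These genes have the smallest p of that list, so the lack of overlap between their counted groups follows from the choice. Of its 16 genes in the count table, 8 were below and 6 above DMSO in both inhibitor libraries, against 7389 and 8772 of 35602.

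Of 23 genes tested from a list on breakdown, 10 fell (43.5%) and 3 rose (13%), against 32.3% and 31.5% of all genes. The 5′-nucleotidase *Nt5c* was at 73.1 and 71.9 CPM against 38.2 and 38.1 CPM and fell (log2 fold change -0.93, SE 0.0692, edgeR quasi-likelihood test with Benjamini-Hochberg adjusted p = 1.51e-06), although its log2 ratio in the replicate 1 pair was 0.34. The pyrimidine nucleotidase *Nt5c3* was at 25.0 and 23.4 CPM against 48.4 and 42.4 CPM and rose (log2 fold change 0.91, SE 0.0937, edgeR quasi-likelihood test with Benjamini-Hochberg adjusted p = 1.36e-05). *Dnph1*, a deoxynucleotide hydrolase, was at 6.52 and 6.95 CPM against 0.930 and 1.2985 CPM (log2 fold change -2.59). Nucleoside transporters and ectoenzymes had 6 of 10 tested higher (60%, against 31.5% of all genes) and 2 lower (20%, against 32.3%), and the adenosine receptors listed with them, *Adora2a* and *Adora2b*, were higher and lower. The equilibrative transporter *Slc29a1* was at 64.8 and 73.4 CPM against 23.9 and 27.3 CPM and fell (log2 fold change -1.43, SE 0.0938, edgeR quasi-likelihood test with Benjamini-Hochberg adjusted p = 6.49e-07). *Slc29a3*, found in lysosomes, was at 49.7 and 57.1 CPM against 107 and 98.2 CPM and rose (log2 fold change 0.94, SE 0.0818, edgeR quasi-likelihood test with Benjamini-Hochberg adjusted p = 4.13e-06), as did the concentrative transporter *Slc28a2*, at 54.4 and 56.6 CPM against 98.8 and 97.0 CPM (log2 fold change 0.82, SE 0.0649, edgeR quasi-likelihood test with Benjamini-Hochberg adjusted p = 2.24e-06). These transporters had log2 ratios of the same signs in the replicate 1 pair, -0.86, 0.79 and 0.29.

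Genes of S phase and mitosis were set beside the nucleotide genes. Of 16 tested, 14 fell (87.5%, against 32.3% of all genes) and 0 rose, with a median log2 fold change of -0.56, and *Mki67* and *Cdc6* were not called. Their summed level was 3014 and 2964 CPM with DMSO against 1686 and 2239 CPM with the inhibitor, with *Top2a* highest in CPM for DMSO and *Mki67* for the inhibitor. *Pcna* was at 369 and 351 CPM against 154 and 196 CPM (log2 fold change -1.04, SE 0.0934, edgeR quasi-likelihood test with Benjamini-Hochberg adjusted p = 5.1e-06), and *Mcm2* and *Ccna2* fell by 1.07 and 1.03 on the log2 scale. All 16 were lower in inhibitor replicate 2 than in inhibitor replicate 3, and so were 20 of the 33 members (60.6%), against 51.3% of all genes tested. Those 20 include *Gart*, *Cad*, *Dut* and *Dck*, whereas *Nme1*, *Ctps*, *Cmpk1* and *Nt5e*, which fell, had the opposite order. In the replicate 1 pair all 16 had negative log2 ratios, with a median of -0.75. The part of a different share of dividing cells in the results above was not tested.

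By position in GENCODE M21 on GRCm38, the build named by the submitters, the members lie on 13 chromosomes, with 4 each on chromosomes 2, 5, 11 and X. The X chromosome holds *Prps1* (chrX:140456613-140476140), *Prps2* (chrX:167346322-167382749), *Ctps2* and *Hprt*. Members lie within 100000 bases of each other in only 2 places. *Ppat* (chr5:76913249-76951578, minus strand) and *Paics* (chr5:76951307-76967509, plus strand) start head to head and overlap by 272 bases, and their log2 fold changes were -0.19 and 0.55. Without strand, reads from those 272 bases, 6.15% of the exonic bases of *Ppat* and 8.67% of those of *Paics*, cannot be told apart. *Nme2* (chr11:93949814-93956259) and *Nme1* (chr11:93956979-93968521) follow each other on the minus strand with 719 bases between them, and their log2 fold changes were 0.09 and -1.15. *Gart* (chr16:91621186-91646952) shares 1014 exonic bases, 19.7% of its own, with *Gm15964* on the opposite strand, which has no line in the count table.

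Promoter windows of 300 bases, from 250 before to 50 after a gene start, were available from RefSeq (GRCm38.p6) for 31 of the 33 members. The letters CACGTG, an E-box that reads the same on both strands, occur in a window of 4 of these 31 members (12.9%), *Atic*, *Impdh2*, *Nme1* and *Paics*, against 10.8% of 12606 genes tested that have a window. The E2F-type letters TTTCCCGC or TTTGGCGC, on either strand, occur for *Ppat* and *Prps2*, 6.45% of members against 3.05% of those genes. CCAAT was found for 11 members (35.5%), against 42.3% of those genes, and TGATGNAAT, an amino acid response element, for 0 members, against 0.619%. Of the members with CACGTG, *Nme1* fell, *Atic* and *Paics* rose and *Impdh2* was not called. A match is only a run of letters, and its absence says nothing about a factor.

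The windows of 3 pairs are printed, whose members lie side by side or are isozymes and moved apart. *Ppat* fell, by a call that rests on little, and *Paics* rose. *Nme1* fell while *Nme2* was not called, and *Prps1* fell while *Prps2* rose. The isozymes *Ctps* and *Ctps2*, and *Uck1* and *Uck2*, also moved apart, but their windows are not shown. Each printed window is given 5′ to 3′ on the gene's strand, with capitals marking CACGTG and the E2F-type letters on either strand. Of the annotated starts of *Nme1* the window with the higher coordinates is shown, and of those of *Nme2* the lower.
Ppat, chr5:76951529-76951828, minus strand: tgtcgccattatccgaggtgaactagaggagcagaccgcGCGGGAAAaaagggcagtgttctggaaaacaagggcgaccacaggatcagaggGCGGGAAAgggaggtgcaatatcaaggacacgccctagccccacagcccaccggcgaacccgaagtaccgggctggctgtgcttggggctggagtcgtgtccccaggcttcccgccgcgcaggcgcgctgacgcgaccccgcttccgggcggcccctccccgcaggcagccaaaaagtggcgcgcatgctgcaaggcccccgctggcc
Paics, chr5:76951052-76951351, plus strand: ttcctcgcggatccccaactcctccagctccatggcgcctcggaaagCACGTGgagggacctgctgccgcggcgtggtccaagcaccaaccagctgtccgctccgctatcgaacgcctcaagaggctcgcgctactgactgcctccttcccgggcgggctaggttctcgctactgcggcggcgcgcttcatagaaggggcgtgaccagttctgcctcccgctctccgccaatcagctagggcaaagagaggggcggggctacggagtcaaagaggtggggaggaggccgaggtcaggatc
Nme1, chr11:93968223-93968522, minus strand: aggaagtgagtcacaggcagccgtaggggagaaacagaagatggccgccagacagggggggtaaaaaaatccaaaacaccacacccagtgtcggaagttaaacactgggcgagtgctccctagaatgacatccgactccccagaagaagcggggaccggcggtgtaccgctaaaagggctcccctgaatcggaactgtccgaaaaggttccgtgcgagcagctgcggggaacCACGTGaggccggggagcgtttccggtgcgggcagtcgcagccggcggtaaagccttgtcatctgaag
Nme2, chr11:93955734-93956033, minus strand: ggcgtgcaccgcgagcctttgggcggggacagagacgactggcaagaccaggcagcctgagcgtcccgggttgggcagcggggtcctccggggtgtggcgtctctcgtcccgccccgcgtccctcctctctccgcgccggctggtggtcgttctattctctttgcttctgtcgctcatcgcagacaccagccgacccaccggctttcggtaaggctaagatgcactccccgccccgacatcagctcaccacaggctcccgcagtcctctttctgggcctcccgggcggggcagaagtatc
Prps1, chrX:140456353-140456652, plus strand: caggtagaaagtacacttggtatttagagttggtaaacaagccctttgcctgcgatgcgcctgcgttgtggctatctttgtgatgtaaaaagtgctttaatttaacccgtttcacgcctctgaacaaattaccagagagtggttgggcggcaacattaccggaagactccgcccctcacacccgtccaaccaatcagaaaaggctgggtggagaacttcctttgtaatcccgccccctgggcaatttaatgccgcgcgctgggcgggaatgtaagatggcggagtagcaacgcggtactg
Prps2, chrX:167382700-167382999, minus strand: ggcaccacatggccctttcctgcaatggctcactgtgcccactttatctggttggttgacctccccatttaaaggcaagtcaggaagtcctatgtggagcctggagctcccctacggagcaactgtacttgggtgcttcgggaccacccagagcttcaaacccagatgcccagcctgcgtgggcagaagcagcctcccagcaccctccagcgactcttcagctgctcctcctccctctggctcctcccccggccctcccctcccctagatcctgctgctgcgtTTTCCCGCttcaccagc
The *Paics* window holds CACGTG well before the RefSeq start on which it was placed, the *Nme1* window close to its own. By the GENCODE position given above, *Nme1* starts at the 5′ edge of its window, so that CACGTG then lies inside the gene. In the *Ppat* window the E2F-type letters occur at 2 positions and in the *Prps2* window at 1, and the *Nme2* and *Prps1* windows hold neither motif.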

How the data were processed

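The gene counts of DMSO and inhibitor replicates 2 and 3 were made by the authors, whose processing notes name fastp 0.21.0, HISAT2 2.1.0, StringTie 2.1.5, DESeq2 1.30.1 and the mm10 build, and were taken as deposited. The values of the replicate 1 pair were also taken as deposited and carry no unit in the files; they were read as FPKM, and for them the authors' notes name FastQC and HISAT2 without versions. Their replicate number follows only the order of the records.

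Counts were filtered with filterByExpr, scaled by TMM and compared with the quasi-likelihood test of edgeR 4.0.16 (limma 3.58.1, R 4.3.3), adjusted by Benjamini-Hochberg over all genes tested. The standard error is the absolute log2 fold change divided by the root of F. For the FPKM, a gene was kept with at least 1 FPKM in either library. The script was tested on simulated data. Tried instead were RLE, upper-quartile and total scaling, other filters, DESeq2 1.42.0, a replicate block, wider de novo and salvage groups, and leaving out each library. Shared sequence was counted as exact 31-base windows.

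The members and further lists were chosen with earlier results of these data known. Full statistics are given for up to 3 members of each role with the smallest p and for every member not called, and other members by value. For further lists, up to 3 genes with the smallest p are named, plus *Rrm1*, *Rrm2*, *Tyms* and *Tk1*, and isozymes are shown side by side.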

Additional observations from a re-analysis of the deposited data

How the results depend on the processing

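The number of members called higher, 7 with TMM scaling, was 11 with upper-quartile scaling, 12 with scaling by library totals and 11 with a filter of at least 10 counts in every library. Of the 16269 genes tested, 5122 were called higher with TMM scaling, 5823 with upper-quartile scaling and 6176 with library totals. With that filter it was 4606 of 14166. The median log2 fold change of the members was -0.0724932 with upper-quartile scaling, -0.027879 with library totals and -0.108151 with that filter. It ran from -0.212414 (without DMSO replicate 3) to -0.151346 (without DMSO replicate 2) when 1 library was left out. Beyond the shift that a scaling gives all genes alike, the cause was not tested.

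The de novo minus salvage difference was -0.20282 with the wider groups. Leaving out 1 library gave -0.0509459 (without DMSO replicate 3) to 0.0346767 (without DMSO replicate 2), so its sign reversed. *Impdh1* reversed as well, to 0.0508928 with upper-quartile scaling, 0.0954064 with library totals and 0.0154577 with at least 10 counts in every library, and it ran from -0.173309 (without inhibitor replicate 3) to 0.096541 (without inhibitor replicate 2) with 1 library left out. *Hprt* reversed to 0.0104914 with library totals. The causes were not tested, beyond the shift that a scaling gives all genes alike.

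With a replicate block, 23 members were called and their median was -0.153455. Libraries of the same number share only that number, and the correlation of their deviations from the group means in this pairing was -0.00641.

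With 2 libraries per group the test rests on few degrees of freedom, and no label gives the source of each library. The replicate 1 pair differs in kit, unit and labels, so its disagreement with the counts cannot be told apart from these differences.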
